A study of Mus musculus with 24 samples.

Results

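The response of the cochlea to noise by day was measured in mice that kept their adrenal glands. The comparison sets the 3 samples of day noise with sham operation (a, b and c) against the 3 samples of day sham exposure with sham operation, chosen by their labels. These are 6 of the 24 samples of the series, and all genes counted in them were considered. The mice were of the strain CBA/Sca and 12 weeks old, and all of them had undergone a sham operation, the surgical control for removal of the adrenal glands (ADX). Noise of 6 to 12 kHz at 100 dB SPL was given for 1 h from ZT3, that is 3 h after lights-on, and the control mice had a sham exposure. The series text places collection of the whole cochlea 2 h after the noise, whereas the labels of these samples give ZT11, and the sources used here do not settle which holds. Further samples serve as a measure of difference: night noise and night sham exposure with sham operation (noise from ZT15, labels ZT23), and day noise and day sham exposure with ADX, 3 samples each, of the same strain and age. The labels do not say that samples came from separate mice, so the p-values compare samples and may rest on technical spread alone.

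The cochlea turns sound into nerve impulses in its hair cells, which spiral ganglion neurons carry to the brain, while the stria vascularis and the fibrocytes of the lateral wall keep up the ionic milieu that hair cells need. Loud sound strains these cells, and strained cells switch on immediate early genes, whose products are mostly transcription factors such as the Fos and Jun subunits of AP-1, before they make secreted signals of injury and the brakes of the signalling itself. Glucocorticoid hormone of the adrenal cortex acts on many of the same cells through a nuclear receptor that controls genes of metabolism and inflammation.

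Between 18894996 and 24655516 reads were assigned to genes in each of the 6 samples. Levels are given in CPM, the reads of a gene scaled to a common library size with TMM factors. CPM is not corrected for gene length, so levels of one gene are compared between samples and not with those of another gene. Genes of all major cochlear cell types were present: the summed level of 21 hair cell markers was 1120 to 1250 CPM after noise and 1010 to 1290 CPM after sham exposure, and that of 16 stria vascularis markers 4940 to 5540 and 4810 to 6100 CPM. Day sham exposure sham-operated b stood apart by genes of neighbouring tissue. Its summed level of 10 cerebellar genes was 340 CPM, the highest of all 24 samples, against 170 to 193 CPM in the other 5, and its summed skeletal muscle markers were 202 CPM against 80.6 to 123 CPM. The pituitary hormone gene Gh reached 13.7 and 41.9 CPM in day noise a and b and lay between 0.576 and 2.52 CPM in the other 4 samples. In bulk tissue of this kind, fewer cells of a type and less RNA per cell cannot be told apart.

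Few genes passed the test by day, and most of those that did were higher after noise, among them the AP-1 genes Fosl1, Maff and Atf3, the cytokines Lif and Gdf15, the TWEAK receptor Tnfrsf12a and the filamin Flnc. Of 16607 genes tested, 41 passed an adjusted p of 0.05 (edgeR quasi-likelihood test, Benjamini-Hochberg adjustment over all genes), a share of 0.247%, and 35 of them were higher and 6 lower after noise. The median log2 fold change of all genes was -0.00703. For each of the 41 genes the 3 noise samples lay all above or all below the 3 sham exposure samples, which held for 14% of all genes tested. Among the 35 genes that rose, noise sample a was the lowest of the 3 noise samples in 28, b the highest in 22 and c the highest in 11. The call rested on single samples for part of these genes: 19 of the 41 passed in each of 6 fits that left out 1 sample, 10 passed in 1 of them, and the number of genes called ran from 23 without day sham exposure c to 55 without day noise a. It was 25 without day noise b and 27 without day noise c, day sham exposure a or day sham exposure b. Genes named below passed in all 6 of those fits unless said otherwise.

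**Figure D1:**
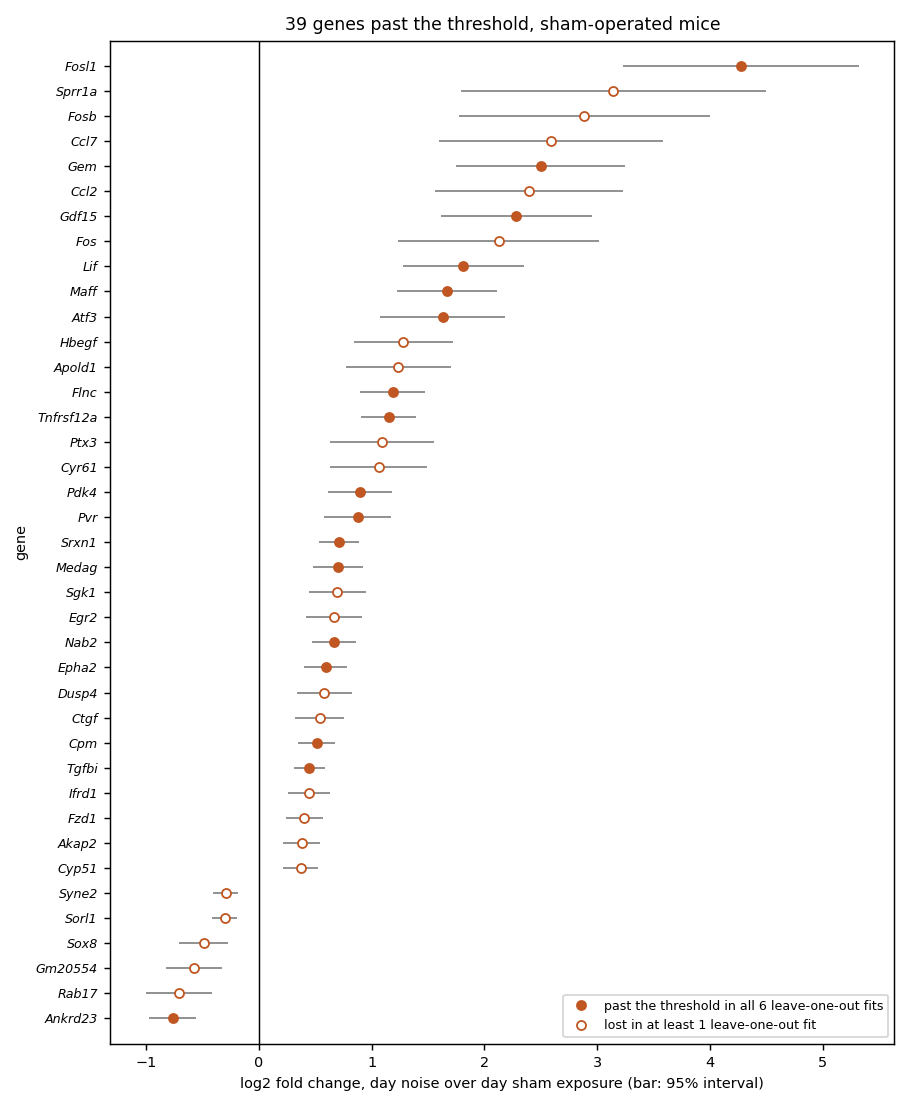
Log2 fold change of day noise over day sham exposure in sham-operated mice (x axis) for 39 of the 41 genes that passed the threshold (y axis), with 95% intervals as bars. Filled circles mark the 17 genes drawn that passed in all 6 fits that left out 1 sample and open circles the others. Fosl1 stands highest at 4.27 and Ankrd23 lowest at -0.76.

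The AP-1 family held the highest fold change of the genes called, that of Fosl1. Of 15 AP-1 subunits and relatives tested, 5 rose and 0 fell, and the median of the list was 0.225. Fosl1, a Fos subunit of AP-1 induced by growth factor signalling, measured 1.14, 2.42 and 2.17 CPM in noise samples a, b and c and 0.105, 0.0441 and 0.133 CPM after sham exposure. All 3 noise samples were far above the controls, in which the gene had 2, 1 and 3 reads. It rose by 4.27 on the log2 scale (SE 0.503, adjusted p = 0.000136 by edgeR). Maff, a small Maf protein that pairs with Nrf2 and with AP-1 subunits, measured 15.7, 24.3 and 22.4 CPM against 6.57, 6.74 and 6.25 CPM. The controls hardly differed among themselves, and the rise was 3.18-fold (log2 1.67, SE 0.213). Atf3, a stress-induced repressor that pairs with Jun, measured 12.1, 20.7 and 17.0 CPM against 4.52, 5.86 and 5.58 CPM, a 3.09-fold rise.

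Fos and Fosb, the prototypes of the family, differed more between the noise samples. Fos measured 24.8, 65.9 and 41.9 CPM after noise and 7.78, 12.8 and 9.48 CPM after sham exposure. The groups did not overlap, but noise a was much nearer to the controls than noise b. Its log2 change was 2.13 (SE 0.424, adjusted p = 0.0348 by edgeR), and it passed in 1 of the 6 fits that left out a sample, with an adjusted p of 0.213 without day noise b. Fosb, at 4.58, 11.8 and 6.50 CPM against 0.841, 1.32 and 0.886 CPM, passed in 2 of those fits. By limma voom neither passed (adjusted p = 0.152 for Fos and 0.136 for Fosb). Fos also did not pass in an edgeR fit of the 6 samples alone (adjusted p = 0.213), whereas Fosb did (0.0456). With a block added to that fit both passed (adjusted p = 0.00703 for each). The Jun genes, named after their values were seen, did not pass: Junb measured 51.2, 86.9 and 63.7 CPM against 35.9, 35.6 and 34.3 CPM (adjusted p = 0.12 by edgeR), and Jun 57.0, 75.3 and 78.2 CPM against 49.9, 50.5 and 50.3 CPM (adjusted p = 0.163).

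**Figure D2:**
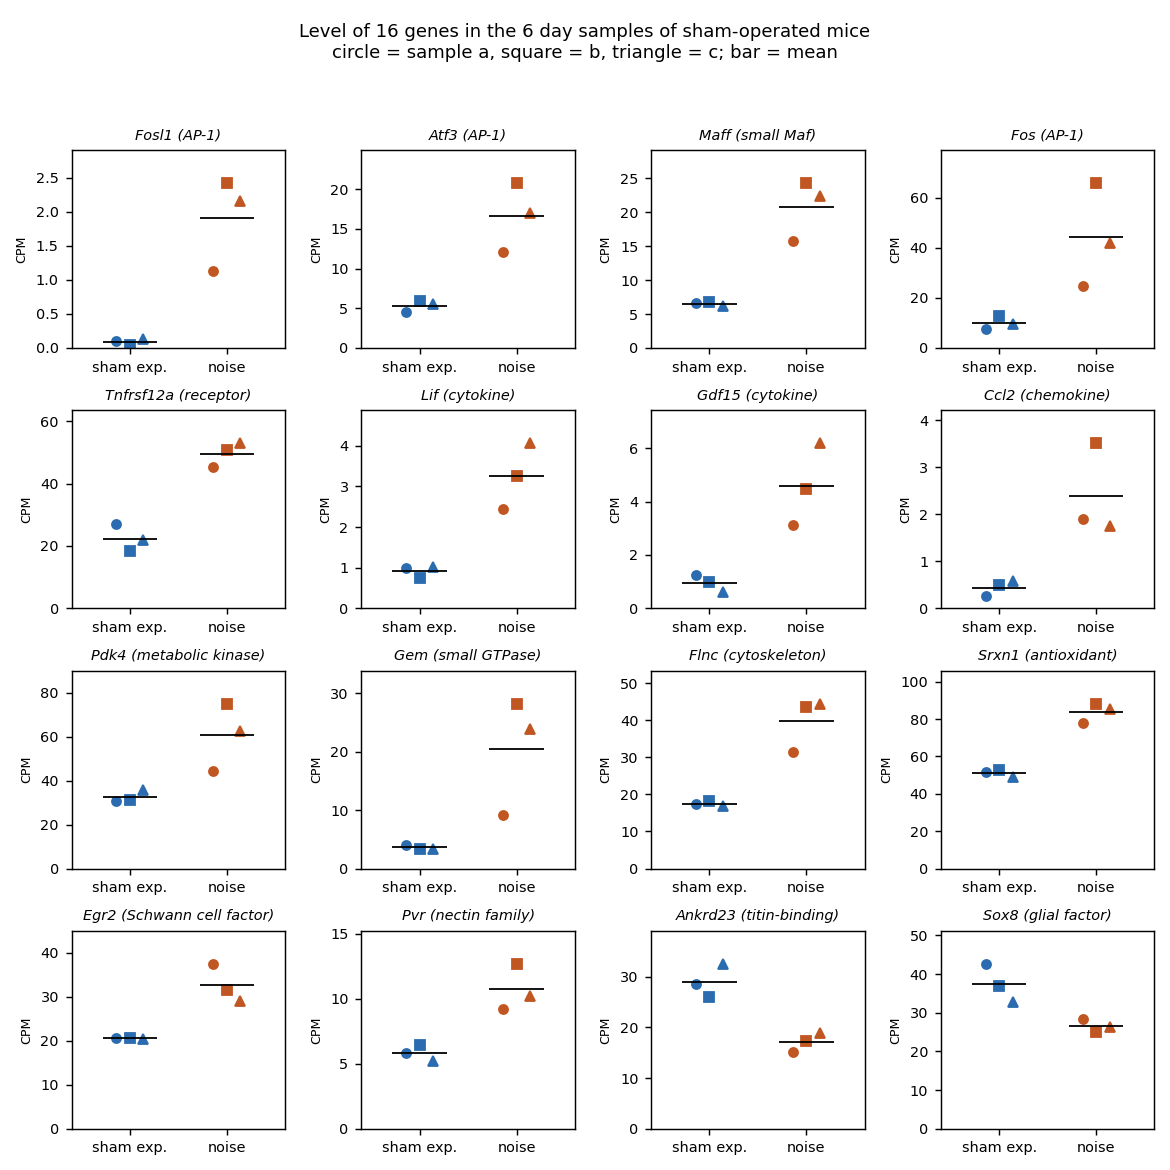
Level in CPM (y axes, each from 0) of 16 of the 41 genes in the 3 day sham exposure samples (blue) and the 3 day noise samples (orange) of sham-operated mice, with circles, squares and triangles for samples a, b and c and bars for means. In each panel the groups stand apart, and noise sample a is often the nearest to the controls, as for Gem at 9.09 CPM against 28.2 and 23.96 CPM.

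Promoter windows of 300 bases, from 250 before a transcription start to 50 after it, were found in RefSeq (GRCm38.p6) for 31 of the 41 genes, 25 of those that rose and 6 that fell. They were searched on both strands for an AP-1 site (TGANTCA), the cAMP response element (TGACGTCA), the core of the antioxidant response element (TGACNNNGC), an EGR site (GCGTGGGCG) and, by name, the serum response (CArG) box and an NF-kB site. Matches of different motifs can share letters. The stretches before the start are shown for 5 genes that rose, with matches in capitals, because their matches bear on the gene groups described here: both AP-1 sites in Srxn1 and in Sprr1a, the AP-1 site of Lif, the CArG box of Egr2 and the EGR site and cAMP response element of Maff.
Srxn1, chr2:152105274-152105523, plus strand: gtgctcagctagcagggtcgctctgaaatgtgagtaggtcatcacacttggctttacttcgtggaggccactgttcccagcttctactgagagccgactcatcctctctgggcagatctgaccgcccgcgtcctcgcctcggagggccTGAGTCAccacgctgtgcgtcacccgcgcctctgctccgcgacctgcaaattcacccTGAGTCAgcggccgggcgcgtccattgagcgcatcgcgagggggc
Sprr1a, chr3:92485882-92486131, minus strand: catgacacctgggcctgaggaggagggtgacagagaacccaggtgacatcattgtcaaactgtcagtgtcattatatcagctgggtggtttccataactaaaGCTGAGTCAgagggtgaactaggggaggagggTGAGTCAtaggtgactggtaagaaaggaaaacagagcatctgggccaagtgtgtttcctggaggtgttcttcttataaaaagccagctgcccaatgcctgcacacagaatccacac
Lif, chr11:4257318-4257567, plus strand: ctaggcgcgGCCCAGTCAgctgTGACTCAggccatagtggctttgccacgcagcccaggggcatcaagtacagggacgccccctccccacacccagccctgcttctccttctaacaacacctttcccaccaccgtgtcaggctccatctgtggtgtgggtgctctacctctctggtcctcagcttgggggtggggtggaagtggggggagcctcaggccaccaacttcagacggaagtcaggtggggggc
Egr2, chr10:67537619-67537868, plus strand: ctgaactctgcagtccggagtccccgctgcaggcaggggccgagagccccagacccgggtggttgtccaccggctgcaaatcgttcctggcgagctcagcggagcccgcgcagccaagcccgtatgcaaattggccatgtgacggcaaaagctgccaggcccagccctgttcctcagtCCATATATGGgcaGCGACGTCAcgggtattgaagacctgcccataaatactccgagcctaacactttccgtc
Maff, chr15:79347270-79347519, plus strand: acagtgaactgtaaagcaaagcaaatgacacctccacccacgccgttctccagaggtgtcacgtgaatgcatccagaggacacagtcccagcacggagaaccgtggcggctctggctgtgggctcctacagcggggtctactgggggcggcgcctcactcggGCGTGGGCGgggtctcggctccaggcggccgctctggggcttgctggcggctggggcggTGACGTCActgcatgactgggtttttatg
In Srxn1 the AP-1 sites began 102 and 45 bases before the start, and in Sprr1a 146 and 116 bases before it. The CArG box of Egr2 began 72 bases before the start of the window shown, the cAMP response element of Maff 29 and its EGR site 88 bases before. The AP-1 site of Lif began 228 bases before its start. The capitals that do not belong to these sites are matches to the antioxidant core, which in Sprr1a overlaps an AP-1 site.

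An AP-1 site was in 3 of the 43 windows of genes that rose (6.98%), those of Lif, Sprr1a and Srxn1, and in 7.81% of all 32851 windows and 5.65% of the 15309 windows of genes tested, so the comparison turned with the background. The cAMP response element was in those of Epha2 and Maff (4.65% of windows, against 1.79% of all and 2.73% of those tested), and the antioxidant core in 18.6% of windows against 12.4% and 14.2%. Those were 8 windows of 6 genes, and 3 of them were overlapping windows of Egr2 that hold the same match. The EGR site was in windows of Ifrd1 and Maff (4.65% against 0.612% and 1.07%), and the NF-kB site in windows of Flnc, Fos, Fosb, Maff and Ptx3 (11.6% against 4.51% and 5.45%). The CArG box was in 4 windows (9.30% against 1.63% and 1.35%), all of Egr2 and 3 of them overlapping. Among the 6 genes that fell, the EGR site was in a window of 1, Sorl1, and the antioxidant core in windows of 2, Ankrd23 and Sox8. All of these are letter matches in one short window per start, and no binding was measured.

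Beyond AP-1, 2 of 23 other immediate early genes rose and 0 fell, while all 23 had a log2 change above 0, with a median of 0.351. Nab2, a corepressor that binds Egr factors and limits them, measured 51.2, 55.7 and 64.6 CPM against 37.7, 32.9 and 37.4 CPM and rose 1.59-fold. Egr2, a zinc finger factor that drives myelination in Schwann cells, measured 37.5, 31.5 and 29.2 CPM against 20.8, 20.6 and 20.5 CPM. It differed from most genes that rose in that noise sample a was its highest. Egr2 rose by 0.67 on the log2 scale (SE 0.12, adjusted p = 0.0103 by edgeR) and passed in 3 of the 6 fits that left out a sample.

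The orphan nuclear receptors and Egr1 had larger changes that did not pass. Nr4a3 measured 3.45, 9.23 and 5.69 CPM against 0.788, 2.42 and 0.709 CPM (log2 change 2.20, SE 0.496, adjusted p = 0.0747 by edgeR). Nr4a1, which like Nr4a3 is an orphan receptor induced by depolarization and stress, measured 58.2, 151 and 79.5 CPM against 29.8, 34.4 and 27.3 CPM (adjusted p = 0.081). Egr1 measured 83.1, 176 and 136 CPM against 41.5, 44.4 and 63.1 CPM (adjusted p = 0.0933). In these 3 genes the groups did not overlap and noise b was the highest sample.

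Of 16 feedback genes of the MAP kinase pathway, 1 rose and 0 fell, with a median log2 change of 0.257. Dusp4, a phosphatase that inactivates nuclear MAP kinases, measured 24.1, 28.3 and 35.6 CPM against 20.1, 18.0 and 20.6 CPM and passed in 1 of the 6 fits that left out a sample. Errfi1, an inhibitor of the EGF receptor kinase, lay just outside the threshold at 117, 151 and 133 CPM against 80.2, 88.1 and 91.0 CPM (log2 change 0.63, adjusted p = 0.0534 by edgeR), as did Dusp6, a phosphatase of ERK (log2 change 0.36, adjusted p = 0.0654).

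Among 9 EGF receptor ligands and receptors, Hbegf was the 1 that rose and 0 fell (median -0.117). Hbegf, a membrane-bound ligand of the EGF receptor that is shed on injury, measured 11.2, 21.1 and 18.0 CPM against 6.46, 7.97 and 6.11 CPM, a 2.43-fold rise that passed in 5 of the 6 fits. In an edgeR fit of the 6 samples alone Hbegf did not pass (adjusted p = 0.093). The receptors did not pass: the log2 change of Egfr was -0.13 and that of Erbb2 -0.12, both named after their values were seen. Epha2, a receptor tyrosine kinase for ephrins, rose 1.51-fold, at 40.4, 45.8 and 38.0 CPM against 26.3, 27.5 and 28.5 CPM.

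Of 17 other cytokines and stress factors, 2 rose and 0 fell (median -0.0703). Tnfrsf12a, the receptor of the cytokine TWEAK, had the lowest adjusted p of all genes. It measured 45.3, 50.8 and 52.9 CPM after noise and 26.9, 18.4 and 21.8 CPM after sham exposure, so that the groups were well apart. The rise was 2.22-fold (log2 1.15, SE 0.117, adjusted p = 3.91e-05 by edgeR). Gdf15, a stress-induced cytokine of the TGF-beta family, measured 3.12, 4.49 and 6.18 CPM against 1.26, 0.969 and 0.62 CPM and rose 4.86-fold (log2 2.28, SE 0.322). With a block in an edgeR fit of the 6 samples alone its adjusted p was 0.0637. Lif, a cytokine of the interleukin 6 family that signals through gp130, measured 2.43, 3.25 and 4.06 CPM against 0.998, 0.749 and 1.02 CPM and rose 3.51-fold. It was the 1 gene that rose among 19 of the interleukin 6 family and its signalling, of which 0 fell (median 0.0193). Socs3, a feedback inhibitor of that pathway, measured 18.1, 28.9 and 21.03 CPM against 15.5, 14.3 and 13.9 CPM and did not pass (adjusted p = 0.131).

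Of 28 chemokines tested, 2 rose and 0 fell, and the list median was 0.197. Ccl2, which draws monocytes, measured 1.91, 3.51 and 1.76 CPM against 0.263, 0.485 and 0.576 CPM, a 5.25-fold rise (log2 2.39, SE 0.401, adjusted p = 0.00486 by edgeR) that passed in 5 of the 6 fits. Ccl7, its neighbour on chromosome 11 and a chemokine for the same cells, measured 1.46, 2.37 and 2.12 CPM against 0.158, 0.529 and 0.266 CPM and passed in 2 of them. In an edgeR fit of the 6 samples alone neither passed (adjusted p = 0.0637 for Ccl2 and 0.054 for Ccl7). Both genes were low, with 5 to 13 reads of Ccl2 in each control sample. Ccl3, a ligand of other chemokine receptors, measured 1.01, 0.877 and 1.58 CPM against 0.263, 0.485 and 0.487 CPM (adjusted p = 0.179). Ptx3, a soluble pattern receptor of acute inflammation, measured 6.78, 9.39 and 7.45 CPM against 3.78, 2.996 and 4.30 CPM. Its adjusted p was 0.0333 and rose to 0.0633 when samples of the same letter were paired by a replicate block, and it passed in 1 of the 6 fits that left out a sample. Summed markers of macrophages were 1610 to 2120 CPM after noise and 2000 to 2340 CPM after sham exposure, and those of neutrophils 6860 to 9140 and 7890 to 9930 CPM. Their part in the chemokine values was not tested.

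Other inflammatory programmes gave no calls. Of 20 genes of NF-kB feedback and endothelial adhesion, 0 passed, and their median log2 change was 0.0438. Ptgs2, the inducible cyclooxygenase, measured 3.04, 5.93 and 6.18 CPM against 2.36, 2.78 and 3.19 CPM (log2 change 0.85, adjusted p = 0.212 by edgeR). Of 21 interferon-stimulated genes 0 passed, with a median of -0.00935. Il6 did not pass the filter on low counts and was not tested, and Il1b measured 5.96, 9.70 and 5.91 CPM against 9.77, 8.15 and 10.4 CPM.

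**Figure D3:**
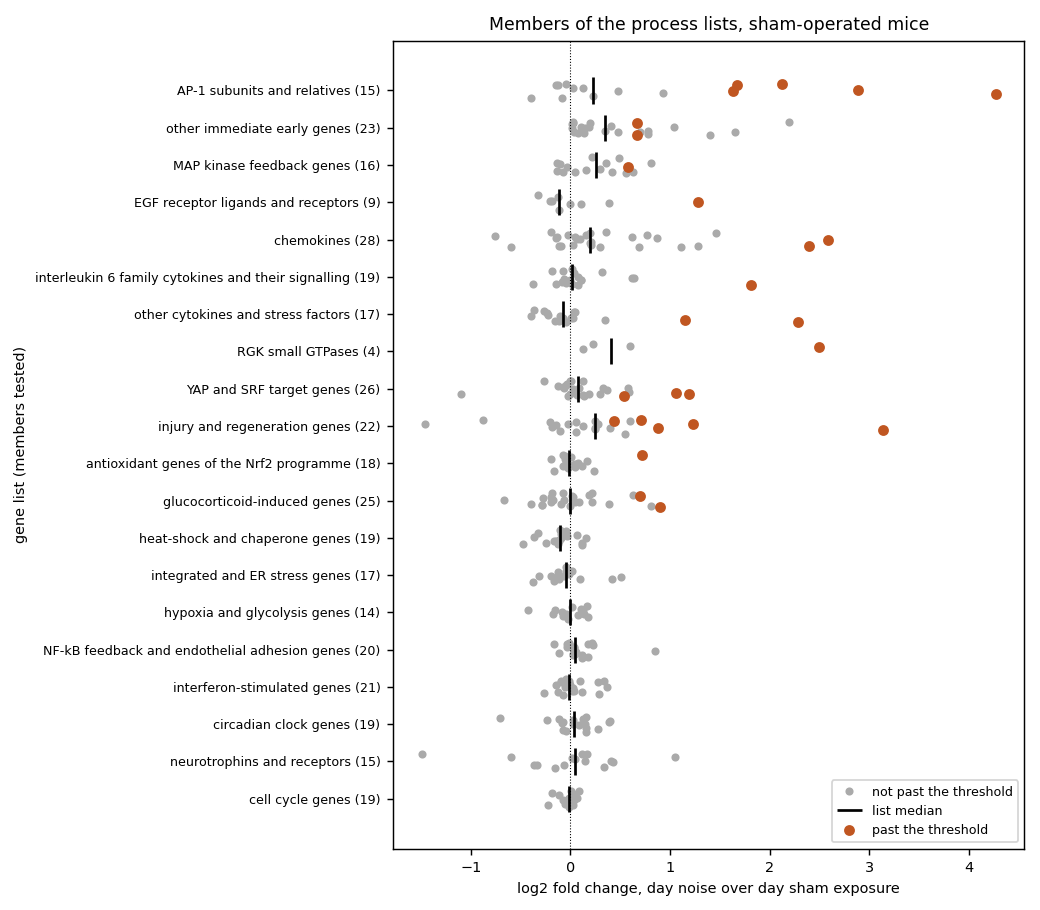
Log2 fold change of day noise over day sham exposure (x axis) for every tested member of 20 process lists (y axis, number tested in brackets), with genes past the threshold in orange, others in grey and list medians as black bars. The AP-1 list holds 5 of the orange points and the highest value, 4.27, and the heat-shock, ER stress, hypoxia, NF-kB, interferon, clock, neurotrophin and cell cycle lists hold 0.

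Cpm, a membrane carboxypeptidase that trims peptides, measured 97.7, 113 and 127 CPM against 85.9, 72.7 and 78.5 CPM and rose 1.43-fold, but did not pass in an edgeR fit of the 6 samples alone (adjusted p = 0.11) or with a block added to it (0.127). Tgfbi, a matrix protein induced by TGF-beta, rose 1.36-fold, from 80.4, 82.2 and 85.4 CPM to 108, 121 and 109 CPM. In both genes every noise sample lay above every control, as in each of the called genes that rose.

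Of 26 target genes of YAP and SRF, which respond to mechanical tension and actin, 3 rose and 0 fell, with a median of 0.0785. Flnc, the filamin that crosslinks actin in muscle and in strained cells, measured 31.5, 43.6 and 44.5 CPM against 17.3, 18.3 and 16.8 CPM and rose 2.28-fold (log2 1.19, SE 0.139, adjusted p = 0.000136). Muscle markers summed to 84.7 to 123 CPM in the noise samples and to 80.6 to 202 CPM in the controls, and their part in the Flnc values was not tested. Cyr61 and Ctgf, matricellular proteins of the CCN family, rose 2.09-fold and 1.45-fold. Cyr61 measured 82.8, 110 and 103 CPM against 53.9, 39.9 and 47.7 CPM and passed in 1 of the 6 fits that left out a sample, and Ctgf passed in 2.

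Of the 4 RGK GTPases 1 rose and 0 fell (median 0.413). That gene, Gem, encodes a GTPase which limits calcium channel activity in excitable cells. It measured 9.09, 28.2 and 23.96 CPM against 4.10, 3.30 and 3.41 CPM, a 5.64-fold rise (log2 2.50, SE 0.36, adjusted p = 0.00153 by edgeR). Gem did not pass by limma voom (adjusted p = 0.0802), in an edgeR fit of the 6 samples alone (0.159) or with a block added to that fit (0.162). The other 3, Rem2 (log2 change 0.60), Rrad (0.23) and Rem1 (0.13), did not pass. Fzd1, a Wnt receptor, rose 1.32-fold and Akap2, an anchor of protein kinase A, 1.30-fold, and each passed in 1 of the 6 fits.

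Of 22 genes known from injury and regeneration, 5 rose and 0 fell, with a median of 0.245. Sprr1a, a cornified envelope protein that injured neurons make, measured 0.73, 0.722 and 1.53 CPM against 0.0525, 0.132 and 0.133 CPM, that is 1 to 3 reads in each control, and it passed in 1 of the 6 fits. Pvr, the poliovirus receptor homologue of the nectin family, measured 9.25, 12.7 and 10.2 CPM against 5.83, 6.48 and 5.18 CPM and rose 1.84-fold (adjusted p = 0.0794 in an edgeR fit of the 6 samples alone). Medag, which promotes fat cell formation, measured 27.0, 35.5 and 28.4 CPM against 15.8, 18.6 and 21.1 CPM (adjusted p = 0.0937 in the edgeR fit of the 6 samples alone). Apold1, an early response gene of endothelium, rose 2.36-fold, from 8.09, 8.77 and 9.62 CPM to 16.4, 26.0 and 20.3 CPM, and passed in 2 of the 6 fits. Summed endothelial and pericyte markers were 873 to 940 CPM after noise and 868 to 940 CPM after sham exposure. Ifrd1, a transcriptional coregulator of regeneration, rose 1.36-fold and passed in 2 of the 6 fits.

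Srxn1 was the 1 gene that rose among 18 antioxidant genes of the Nrf2 programme, whose median was -0.0114. Sulfiredoxin, its product, repairs oxidised peroxiredoxins. The gene measured 77.9, 88.2 and 85.2 CPM against 51.5, 52.7 and 48.9 CPM, both groups within narrow ranges, and rose by 0.71 on the log2 scale (SE 0.0848, adjusted p = 0.000136 by edgeR). Hmox1, haem oxygenase, measured 212, 174 and 172 CPM against 240, 229 and 167 CPM, so the groups overlapped, and Nqo1 17.5, 14.4 and 16.3 CPM against 14.03, 14.4 and 16 CPM. Nqo1 was named after its values were seen.

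Cyp51, the sterol demethylase of cholesterol synthesis, measured 33.0, 35.6 and 34.8 CPM against 25.6, 27.9 and 26.3 CPM. Both groups were tight and did not overlap. It rose by 0.37 on the log2 scale (SE 0.0738, adjusted p = 0.0282 by edgeR) and passed in 1 of the 6 fits that left out a sample.

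The list of genes that glucocorticoid induces had a median of -0.00692, and of its 25 tested members 2 passed, both higher. Sgk1, a kinase that regulates sodium transport, measured 208, 252 and 246 CPM against 143, 133 and 159 CPM and rose 1.62-fold (log2 0.70, SE 0.122, adjusted p = 0.00948 by edgeR), passing in 2 of the 6 fits. Pdk4, which turns cells from glucose to fat oxidation, measured 44.6, 75.1 and 62.8 CPM against 31.0, 31.1 and 35.7 CPM and rose 1.86-fold, but did not pass in an edgeR fit of the 6 samples alone (adjusted p = 0.172) or with a block added to it (0.0821). The classic targets of the receptor did not pass. Fkbp5, a chaperone of the receptor, measured 85.0, 60.9 and 41.7 CPM against 82.6, 72.1 and 57.6 CPM, and Tsc22d3, the leucine zipper GILZ, 126, 106 and 82.2 CPM against 110, 99.8 and 101 CPM. In both genes the ranges of the groups overlapped, and noise a held the highest and noise c the lowest level of the 6. The log2 changes had 95% intervals of -0.83 to 0.48 for Fkbp5 and -0.36 to 0.40 for Tsc22d3.

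Stress programmes of protein folding and oxygen gave 0 calls: 0 of 19 heat-shock and chaperone genes (median -0.102), 0 of 17 genes of the integrated and ER stress responses (-0.0478) and 0 of 14 hypoxia and glycolysis genes (-0.00407). Of 19 circadian clock genes 0 passed, with a median of 0.041. Bhlhe40, a repressor in the clock and a stress-responsive gene, measured 77.9, 98.6 and 102 CPM against 67.8, 71.8 and 71.3 CPM (adjusted p = 0.0779 by edgeR), and Npas2, the Clock homologue, 11.2, 9.65 and 6.05 CPM against 17.7, 12.6 and 13.7 CPM (adjusted p = 0.122). Per1 measured 125, 103 and 75.6 CPM against 83.1, 69.6 and 80.0 CPM, so the groups overlapped. The groups also overlapped for Per2, Nr1d1, Dbp and Arntl, with log2 changes of 0.16, -0.08, 0.15 and -0.05. Means after day and night sham exposure in sham-operated mice were 131.5 and 23.24 CPM for Nr1d1 and 40.78 and 109.1 CPM for Per2. They were 45.82 and 25.63 CPM for Dbp and 22.03 and 17.48 CPM for Arntl. Their bearing on the time of collection was not tested. Of 15 neurotrophins and receptors (median 0.0501) and of 19 cell cycle genes (median -0.0103) 0 passed.

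The 6 genes that fell changed less than 1 log2 unit. Ankrd23, a titin-binding ankyrin repeat protein, measured 15.2, 17.4 and 18.9 CPM after noise and 28.6, 26.0 and 32.5 CPM after sham exposure, and fell by 0.76 on the log2 scale (SE 0.1, adjusted p = 0.00042 by edgeR). Rab17, a GTPase of epithelial trafficking, measured 8.48, 7.33 and 9.66 CPM against 14.9, 11.7 and 15.02 CPM and passed in 2 of the 6 fits. Sorl1, a sorting receptor of endosomes, measured 238, 241 and 245 CPM against 290, 288 and 314 CPM, a small change of -0.30 with a tight spread that passed in 5 of the 6 fits. Syne2, a nesprin that ties the nucleus to the skeleton, changed by -0.29 and passed in 3, and the unnamed transcript Gm20554 changed by -0.57 and passed in 1. In 5 of the 6 genes that fell, day sham exposure b was the lowest of the controls.

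Sox8, a transcription factor of glia, measured 28.5, 25.1 and 26.3 CPM against 42.6, 36.9 and 32.7 CPM (log2 -0.49, SE 0.104, adjusted p = 0.0481 by edgeR). It passed in 1 of the 6 fits and had an adjusted p of 0.073 with the replicate block. Sox8 and Egr2, which moved in opposite directions, were the 2 calls among 16 glia and myelin markers, whose median was 0.283. The summed level of those markers was 4990, 5090 and 5720 CPM after noise and 4700, 4670 and 4750 CPM after sham exposure, without overlap. Over all 24 samples that sum ran from 3600 to 6550 CPM, and the highest was in an unexposed sample, night sham exposure ADX a. The part of the difference between the noise and control sums in the 2 calls was not tested.

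Spiral ganglion neuron markers were also higher in each noise sample than in any day control. Their summed level was 3200, 3120 and 3350 CPM against 2680, 2530 and 2160 CPM, and 18 of the 20 had a log2 change above 0, with a median of 0.342, although 0 passed. The 2160 CPM, of day sham exposure c, was the lowest sum of all 24 samples. The highest, 3470 CPM, was in an unexposed sample, night sham exposure sham-operated c. Nefm, a neurofilament subunit, measured 571, 571 and 579 CPM against 460, 388 and 329 CPM (log2 change 0.55, adjusted p = 0.0747 by edgeR). Slc17a6, the vesicular glutamate transporter of many neurons, was on no list and lay just outside the threshold at 41.1, 37.5 and 36.9 CPM against 20.6, 21.2 and 20.7 CPM (log2 change 0.89, adjusted p = 0.0691). Other unexposed groups had higher levels of both genes than the day controls. Means of Nefm were 554 CPM in night sham exposure sham-operated and 485 CPM in day sham exposure ADX. Those of Slc17a6 were 33.15 and 35.58 CPM. Markers of the other cell types gave 0 calls. The medians were -0.0347 for hair cells, -0.0145 for supporting cells, -0.107 for the stria vascularis, -0.0642 for fibrocytes of the spiral ligament, 0.132 for bone and cartilage and 0.0115 for endothelium and pericytes. Among blood lineages they were -0.0515 for macrophages, -0.197 for neutrophils, 0.30 for lymphoid cells and -0.107 for erythroid cells, of which all 14 neutrophil genes were below 0. Muscle (-0.623), cerebellar (-1.42) and pituitary genes (1.81) had the widest medians, with the highest levels in the samples named at the start; their part in the genes called was not tested.

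Nearest to the threshold on the inside, by adjusted p in edgeR, were Sox8 at 0.0481, Sprr1a and Gm20554 at 0.0364 and Fos and Akap2 at 0.0348. Just outside it lay Errfi1, Igf1r and Slc31a2, all at 0.0534.

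**Figure D4:**
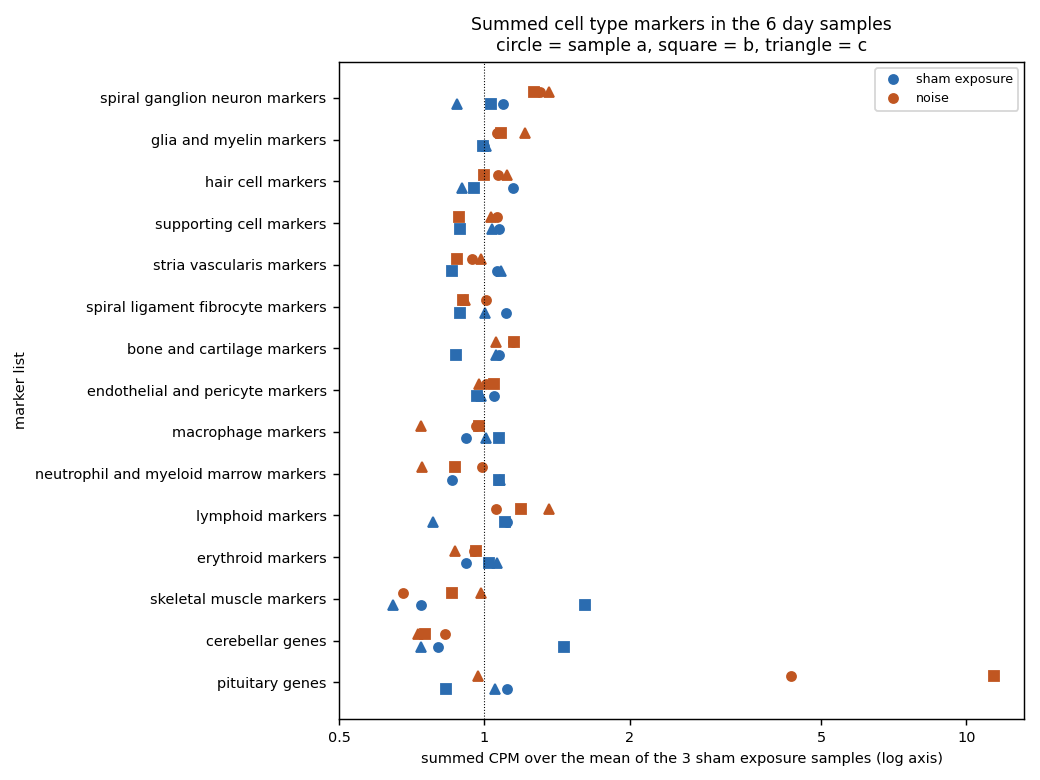
Summed CPM of each marker list in each of the 6 day samples, divided by the mean of the 3 sham exposure samples (x axis, log scale), with sham exposure in blue, noise in orange and circles, squares and triangles for samples a, b and c. Neuron and glia markers are higher in all 3 noise samples than in any control, cerebellar and muscle genes are highest in sham exposure b, and pituitary genes in noise a and b.

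The noise response by day was set against that of sham-operated mice at night, with which it shares no sample. At night 119 genes passed, a share of 0.717%, and 33 of the 41 day genes were among them with the same sign, 80.5% of the day genes and 27.7% of the night genes. Those that did not pass at night were Sorl1, Egr2, Syne2, Cyp51, Ptx3, Akap2, Gm20554 and Sox8. A test of the difference between the night and the day response passed for 0 genes (0.0%) by edgeR, with 1213 at an unadjusted p under 0.05, while DESeq2 called 20 and limma voom 9, of which 0 were among the 41. Of the 35 genes that rose by day, 22 had a larger log2 change at night, as had 8865 of all 16607 genes tested. The median difference was 0.164 against 0.013 for all genes. Gdf15 had the widest gap, with a log2 change of 2.28 by day and 3.91 at night, a difference of 1.63 (95% interval 0.67 to 2.60, adjusted p = 0.348 by edgeR). Fos changed by 2.13 by day and 3.53 at night (difference 1.40, interval 0.16 to 2.64, adjusted p = 0.602). Egr2 went the other way, with 0.67 by day and 0.10 at night, a difference of -0.57 (interval -0.92 to -0.22, adjusted p = 0.382 by edgeR). Slc17a6, just outside the threshold by day at 0.89, changed by -0.16 at night, a difference of -1.05 (interval -1.63 to -0.48, adjusted p = 0.348 by edgeR). Srxn1 differed by -0.10 (interval -0.35 to 0.14) and Pdk4 by 0.03 (interval -0.37 to 0.42).

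Against day noise in ADX mice the number of shared genes was the same as at night, although many more genes passed there. In those mice 667 genes passed (4.02%), and 33 of the 41 genes were among them with the same sign, 80.5% of the 41 and 4.95% of the 667. Ankrd23, Cpm, Sorl1, Egr2, Fzd1, Cyp51, Rab17 and Akap2 did not pass there. The difference between ADX and sham-operated mice in the day response passed for 0 genes (0.0%) by edgeR, with 2716 at an unadjusted p under 0.05. That count depended on 1 sample and on the tool: it was 811 without day noise ADX a, 158 by DESeq2 and 264 by limma voom. Maff and Tnfrsf12a were among the 811 and, with Sgk1, among the 158, and Sgk1 and Tnfrsf12a were among the 264.

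Tnfrsf12a changed by 1.94 in ADX mice and 1.15 in sham-operated mice, a difference of 0.79 (95% interval 0.44 to 1.13, adjusted p = 0.155 by edgeR). Maff changed by 2.75 and 1.67 (difference 1.08, interval 0.45 to 1.71, adjusted p = 0.163). Sgk1, on the list of glucocorticoid-induced genes, changed by 1.32 in ADX mice and 0.70 in sham-operated mice (difference 0.63, interval 0.27 to 0.99, adjusted p = 0.163). Pdk4, of the same list, differed by -0.07 (interval -0.47 to 0.33). Cpm went the other way, with 0.17 in ADX mice and 0.51 in sham-operated mice. Its difference was -0.35 (interval -0.57 to -0.12, adjusted p = 0.173 by edgeR). Control means with ADX and with sham operation were 16.2 and 22.37 CPM for Tnfrsf12a and 4.489 and 6.518 CPM for Maff. For Sgk1 they were 115 and 145 CPM and for Cpm 95.29 and 79 CPM. Means after noise were 62.15 and 49.64, 30.19 and 20.79, 288.1 and 235.2, and 107.1 and 112.7 CPM, in the same order. The part of the control levels in these 4 differences was not tested. Egr2 differed by -0.37 (interval -0.72 to -0.02, adjusted p = 0.274 by edgeR). Of the 35 genes that rose in sham-operated mice, 20 had a larger change with ADX, as had 8312 of all 16607 genes tested. The median difference was 0.182 against 0.000269 for all genes.

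**Figure D5:**
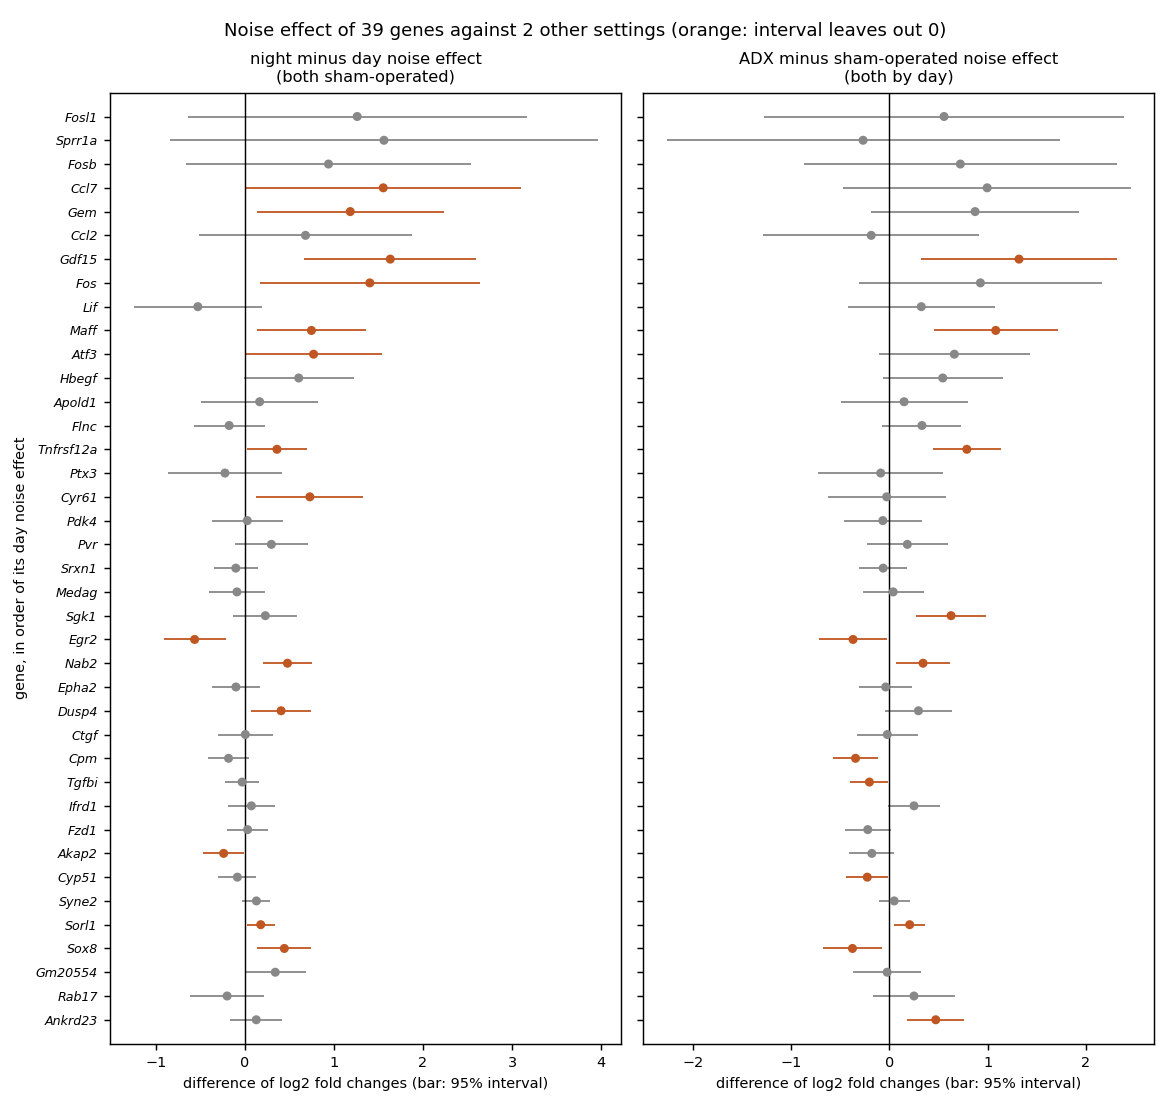
Difference of log2 fold changes (x axes) for 39 of the 41 genes (y axis, in order of the day noise effect), night minus day in sham-operated mice at left and ADX minus sham-operated by day at right, with 95% intervals that are not adjusted for the number of genes. Orange marks intervals that leave out 0, among them Gdf15 at 1.63 and Egr2 at -0.57 at left and Tnfrsf12a at 0.79 at right; by edgeR 0 genes passed the adjusted threshold in either test.

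Positions were found for all 41 genes in GENCODE vM21 (GRCm38). Tnfrsf12a lies on chromosome 17 at 23675445 to 23677468, Flnc on chromosome 6 at 29433256 to 29461883, Srxn1 on chromosome 2 at 152105516 to 152111376 and Maff on chromosome 15 at 79346621 to 79359076. Fosl1 is on chromosome 19 at 5447547 to 5455946. For 11 of the 41 genes an exon overlaps an exon of another gene, and whether the counting used strand is not given in the sources used here. The levels of Fosl1 (with Ccdc85b), Nab2 (with Stat6, Nemp1 and Gm16229), Cyp51 (with Akap9), Sox8 (with 2810468N07Rik), Sorl1 (with Gm16214), Ctgf (with Gm15270), Ifrd1 (with Gm7008), Ankrd23 (with Gm42417), Medag (with Gm20488), Syne2 (with Mir5101) and Akap2 (with Pakap) may hold reads of, or have lost reads to, those neighbours.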

How the data were processed

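Whole cochlear RNA was measured by sequencing of poly-A libraries made with a stranded kit. The deposited file gives, for each gene symbol and sample, whole-number counts made by the authors without normalization. TopHat2 2.0.11, HTSeq 0.6p1 and the build mm10 are named in the submitters' processing notes. The annotation and the strand setting of the counting are not given in the sources used here. Of 23420 entries, 27 had names turned into dates and held 0.214% of counts.

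Counts were tested in R 4.3.3 with edgeR 4.0.16: filterByExpr left 16607 genes, TMM factors ran from 0.974 to 1.02, and 1 quasi-likelihood model with 8 group coefficients was fitted to all 24 samples. The F-tests were two-sided, and p-values were adjusted by Benjamini-Hochberg with a threshold of 0.05. The 95% intervals used the same fits. The 3 samples of each of the 2 groups compared were distinct (chi-square per gene 8.43 to 12.4).

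The letters a, b and c are in the sample titles. Their pairing was checked in the data and is not stated in the labels: the deviations from the group means of same-letter samples correlated at 0.218, 0.195 and 0.289 in the 2 groups compared, and all 3 correlations exceeded 0.1 in 2 of 28 pairs of groups. A fit with the letter as a block was therefore run beside the one without.

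Named genes are those of the 41 past the threshold, except 2 that are not reported here, up to 15 with adjusted p from 0.05 to 0.10, 12 fixed genes, up to 3 members with the largest change per list, and marker genes of samples that stand apart. The comparison, the lists and the rule were chosen with earlier results of these data known. Alternatives were RLE factors, DESeq2 1.42.0, limma 3.58.1 voom, no filter, fits of only the groups compared, the block, fits without 3 samples that held pituitary or cerebellar RNA, and leaving out each sample. Promoter sequences came from RefSeq. List members named outside the rule were picked after their values were seen.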

Additional observations from a re-analysis of the deposited data

How the results depend on the processing

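Against 41 genes called in the day comparison (35 higher, 6 lower), RLE factors gave 41, voom 46, no filter 39, the fit of only the groups compared 30 (1 lower, 18 of the 41 shared) and the fit without the 3 samples with pituitary or cerebellar transcripts 30. DESeq2 gave 123 (98 higher, 25 lower), with all 41 among them. With a replicate block of paired letters the count was 40, of which 38 were shared. Ptx3, Sox8 and Sprr1a (adjusted p = 0.0736 by edgeR) no longer passed and Fat2 did (0.0477), and the block changed no other call among the genes named. A block in the 6 samples alone, chosen after seeing the data, gave 59, of which 12 were lower and 25 shared. Leaving out 1 sample gave 23 to 55 genes, 21 to 51 higher and 2 to 5 lower. The cause of these differences was not tested. No named gene reversed its direction while called, and 12 of the 41 passed in every alternative. The test of night minus day gave 0 genes, but 20 by DESeq2 and 9 by voom, and 0 when any 1 sample was left out. The test of ADX minus sham operation gave 0, but 158 by DESeq2, 264 by voom, 12 when only the groups compared were fitted and 12 with the block added to that fit, and between 0 and 811 when 1 sample was left out, with 1 without day noise sham-operated a. At 3 samples a group, low genes rest on few reads: Fosl1, Sprr1a, Ccl2 and Ccl7 had 1 to 13 reads in each control.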
